A study of Mus musculus with 15 samples.

Results

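Molecular chaperones of the large heat shock protein families, with their cochaperones and the heat shock transcription factors, were followed in cultured neonatal mouse cardiac myocytes held under static stretch. The 76 genes were taken by symbol from the 13657 genes of the deposited table. The rule itself holds no expression value, but it was chosen with earlier results of these data known. They comprise 14 genes of the HSP70 and HSP110 family, 3 of the HSP90 family, the 2 mitochondrial chaperonin genes, the 8 subunits of the CCT chaperonin, 4 DnaJ A, 10 DnaJ B and 24 DnaJ C genes, 8 cochaperones of HSP90 and HSP70, and 3 heat shock transcription factors. The small heat shock proteins are not among them. Of the 76 genes, 75 passed the filter on low values and were tested. Hsf4, which lay between 0.297 and 0.735 FPKM over the 15 libraries, did not pass.

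Poly(A) RNA came from C57BL/6 myocytes attached to silicone (PDMS) membranes, with 5 groups of 3 libraries, named A, B and C in each. The control group was not stretched, and the other groups were stretched for 30 min or 4 h with the main axis of stretch transverse or longitudinal. The stretch was biaxial, 14% on the main axis and 3.6% on the axis at right angles to it, in all stretched groups. The submitters call the 3 devices of a group biological replicates, and since nothing states that their cells came from separate isolations, p-values measure the spread between these libraries. Expression values are read as FPKM, fragments scaled for transcript length and for the mapped total of the library, so levels are per length and can be compared between genes.

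HSP70 proteins bind unfolded stretches of other proteins and release them in a cycle driven by ATP. DnaJ proteins, also called HSP40s, bring clients to HSP70 and stimulate its ATPase, while BAG proteins and the HSP110 family speed the exchange of ADP for ATP. HSP90 takes over partly folded clients such as kinases and steroid receptors, with Stip1 as the bridge from HSP70, and the ring-shaped CCT complex folds actin and tubulin. HSF1, the main heat shock transcription factor, is held inactive by chaperones and, when free, binds heat shock elements in the promoters of inducible chaperone genes. Cardiac myocytes rely on these systems to keep sarcomeric proteins folded.

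A heat shock element is built from inverted repeats of a short unit, so the promoters were searched for 3 such units in a row, GAANNTTCNNGAA or TTCNNGAANNTTC, 1 the reverse complement of the other, which covers both strands. Promoter sequences from RefSeq (GRCm38.p6, 250 bases before to 50 bases after each start) were matched by symbol for 61 of the 76 genes, with 79 windows. The 3-unit motif was present in 4 of the 61 genes (6.56%), against 0.662% of the 27025 genes in the promoter table. The 4 genes were Hspd1 and Hspe1, the mitochondrial chaperonin and its cochaperonin, Dnajb6, a DnaJ that suppresses protein aggregation, and Hsph1, the HSP110 nucleotide exchange factor. A looser search for 2 units, GAANNTTC or TTCNNGAA, each of which reads the same on both strands and lies within the longer motif, was added after the first result was seen. It found 15 of the 61 genes (24.6%), against 17.0% of all genes. A match describes letters in a window and is not evidence of binding. The windows below are shown for the 3-unit genes, for Dnajb4, which differed most steadily from control, and for Hspa1a, which varied most between libraries; capitals mark the 3-unit motif in the first 3 and the 2-unit motif in the last 2, and all are written 5′ to 3′ along the gene.

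Hspe1 (GRCm38.p6 chr1:55087998-55088147, plus strand): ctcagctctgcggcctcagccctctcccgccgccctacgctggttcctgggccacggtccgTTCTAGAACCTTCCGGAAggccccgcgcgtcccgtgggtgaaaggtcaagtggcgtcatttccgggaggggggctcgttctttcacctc
Dnajb6 (GRCm38.p6 chr5:29735748-29735897, plus strand): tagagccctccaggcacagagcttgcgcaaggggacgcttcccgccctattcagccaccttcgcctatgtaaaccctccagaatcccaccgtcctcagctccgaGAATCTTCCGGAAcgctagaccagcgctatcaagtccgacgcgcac
Hsph1 (GRCm38.p6 chr5:149636287-149636306, minus strand): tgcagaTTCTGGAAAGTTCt
Dnajb4 (GRCm38.p6 chr3:152193846-152194095, minus strand): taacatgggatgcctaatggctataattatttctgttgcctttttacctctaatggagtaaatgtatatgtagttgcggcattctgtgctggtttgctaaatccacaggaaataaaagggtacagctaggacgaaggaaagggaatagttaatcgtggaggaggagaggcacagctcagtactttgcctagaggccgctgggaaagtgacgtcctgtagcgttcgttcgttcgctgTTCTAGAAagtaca
Hspa1a (GRCm38.p6 chr17:34972157-34972406, minus strand): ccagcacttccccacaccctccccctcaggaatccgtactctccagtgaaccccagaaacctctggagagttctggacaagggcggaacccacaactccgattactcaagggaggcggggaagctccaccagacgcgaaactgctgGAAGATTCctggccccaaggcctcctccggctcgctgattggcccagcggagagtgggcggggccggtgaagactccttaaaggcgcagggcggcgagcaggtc

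In the Hspe1 window the motif started 89 and 84 bases before the RefSeq start, the 2 matches overlapping, and this interval also serves Hspd1, which is transcribed the other way. The match lay 46 bases before the start of Dnajb6 and 37 bases into the transcript of Hsph1, for which only the 20 bases around it are given. For Dnajb4 and Hspa1a the 2-unit match began 14 and 104 bases before the start. The Hspa1a and Hspa1b windows differed at 4 of 300 positions. These genes are near-identical copies, so reads could be split between them and their separate values are uncertain.

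Chaperones were among the more abundant transcripts of the unstretched myocytes. Over the 3 controls, 9 of the 76 genes averaged above 100 FPKM, 48 lay between 10 and 100, 18 between 1 and 10, and 1 below 1, with a median of 23.2 FPKM against 7.72 FPKM over all genes in the table. Hspa8, the constitutive cytosolic HSP70, was highest, with control values of 814, 744 and 761 FPKM in libraries A, B and C. Hsp90ab1, the constitutive HSP90, followed at 556, 637 and 591 FPKM. Below them came Hspa5, the HSP70 of the endoplasmic reticulum (ER), at 325, 267 and 306 FPKM, its HSP90 partner Hsp90b1 at 233, 216 and 232 FPKM, and the mitochondrial Hspa9 at 154, 136 and 138 FPKM. These 5 genes did not overlap with their neighbours in the order, whereas Cct5, at 108, 110.2 and 110.1 FPKM, and the genes next below it down to Tcp1 overlapped. The inducible HSP90 gene Hsp90aa1 stood lower and more variable, at 121, 84.1 and 110.1 FPKM. The heat-inducible HSP70 genes were low, Hspa1a at 3.18, 1.88 and 6.14 and Hspa1b at 3.26, 2.14 and 6.58 FPKM. Hsf1 was level at 13.8, 13.7 and 14.2 FPKM and Hsf2 at 9.58, 9.91 and 10.9 FPKM.

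**Figure D1:**
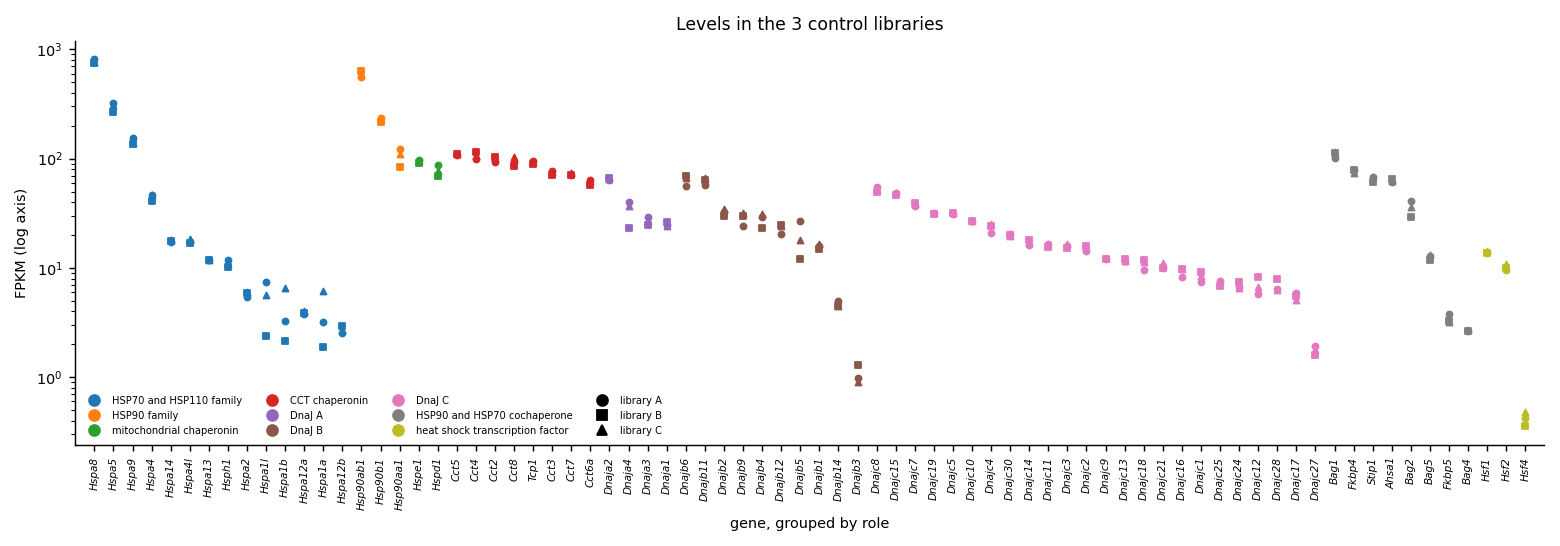
FPKM (log axis) of the 76 genes in the 3 control libraries, 1 marker shape per library, grouped and coloured by role. Hspa8 and Hsp90ab1 lie highest, the 8 CCT subunits fall in a narrow band, and Hspa1a, Hspa1b, Hspa1l and Hsp90aa1 show visible spread between controls.

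A pair of libraries stood apart in these genes and bears on what follows. In the transverse 30 min library B, 14 of the 75 genes (18.7%) were at least 1.5-fold above the mean of the other two libraries of the group, against 6.08% of the 12114 genes tested. In the longitudinal 4 h library C it was 11 genes (14.7%), against 3.33%. Both counts shared 9 genes: Hspa1a, Hspa1b, Hspa1l, Dnaja4, Bag2, Dnajb5, Hsph1, Hspa8 and Cct8. Hspa1a was 3.90, 16.7 and 3.09 FPKM in transverse 30 min A, B and C, and 6.52, 5.18 and 36.4 FPKM in longitudinal 4 h. In each group 1 library held a level several times that of the other two. In the other 13 libraries 0 to 4 genes were at least 1.5-fold above the mean of the rest of their group. They were 4 each (5.33%) in longitudinal 30 min C and transverse 4 h B, against 3.72% and 1.76% of all genes, with Dnaja4, Dnajb5 and Hspa1l in both. The highest value of the group lay in transverse 30 min B for 42 of the 75 genes, in transverse 4 h B for 42, in longitudinal 4 h C for 38 and in longitudinal 30 min C for 36, or 56%, 56%, 50.7% and 48%, against 40.0%, 34.0%, 37.7% and 39.7% of all genes. Relative sequencing depth was estimated as lowest in transverse 30 min B and longitudinal 4 h C, 0.671 and 0.775 of the deepest. These estimates are rough, since they rest on 23 of 656 and 22 of 626 genes with the lowest values. The summed FPKM of the 4 smooth muscle markers Myh11, Cnn1, Tagln and Acta2 was also highest in both within the group, 373 to 1232 FPKM in transverse 30 min and 871 to 1497 FPKM in longitudinal 4 h. It was 446 to 773 FPKM in control, 752 to 1549 FPKM in longitudinal 30 min and 430 to 780 FPKM in transverse 4 h. The sum of the myocyte markers was highest in the same libraries too, 20956 FPKM beside 17150 and 15476 FPKM in transverse 30 min, and 19723 FPKM beside 18681 and 15748 FPKM in longitudinal 4 h. Myocyte markers did not move as a set. Actn2, Myl2, Myl3, Myl7 and Mybpc3 were highest of their group in both libraries, whereas Pln and Ryr2 were lowest in both. Tnni3 was lowest in transverse 30 min B and highest in longitudinal 4 h C. The sum of the fibroblast markers was lowest in these libraries, 3136 and 3482 FPKM. Yet Tcf21 was highest of its group in both, as were Fn1 in transverse 30 min B and Col1a1 in longitudinal 4 h C. The part of depth or of cell makeup in these values was not tested. In bulk RNA, fewer cells of a type and less RNA per cell cannot be told apart. Of 11 myocyte markers 9 were in the table and summed to 15476 to 21598 FPKM, against 3077 to 3972 FPKM for 10 fibroblast markers, 293 to 452 FPKM for 7 macrophage markers and 21.9 to 45.7 FPKM for 8 endothelial markers.

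**Figure D2:**
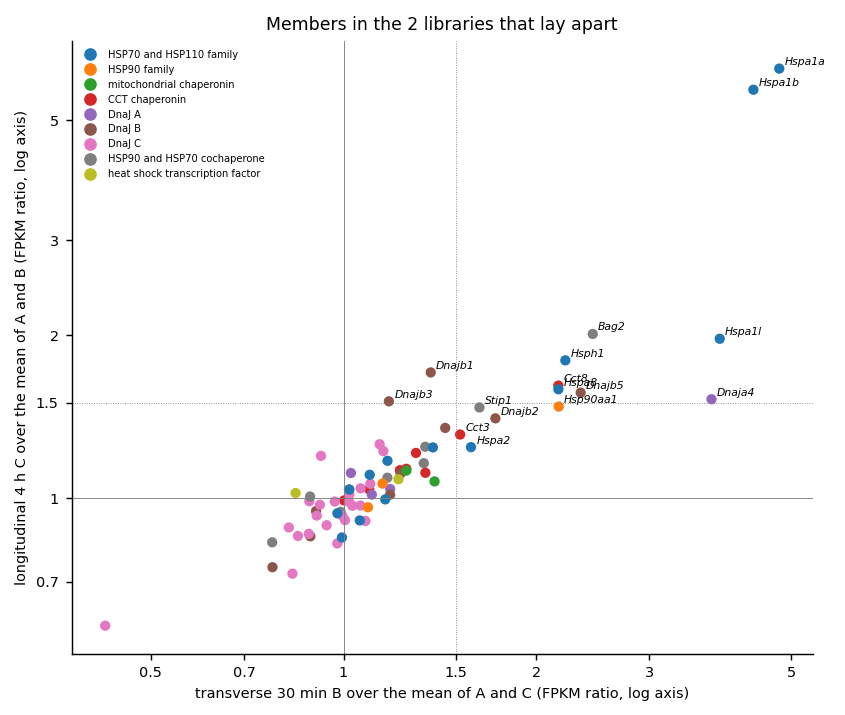
Ratio of FPKM in transverse 30 min library B to the mean of libraries A and C (x, log axis) against the ratio in longitudinal 4 h library C to the mean of A and B (y, log axis), 1 point per gene for the 75 genes tested, coloured by role. Dotted lines mark 1.5-fold; 9 genes lie beyond both, with Hspa1a and Hspa1b farthest out.

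Longitudinal stretch for 4 h was the only one of the 4 stretch conditions in which genes of these families passed the limma test against control. Of the 75 genes, 10 rose and 7 fell, 22.7% in all against 20.7% of all genes tested, so the share called was close to that of all genes. The background was 10.3% for higher and 10.4% for lower calls. The 75 genes lay mostly on the higher side, with 58 of 75 above control (77.3%, against 48.2% of all genes) and a median log2 fold change of 0.13 against -0.010 over all genes. That median was 0.073 after quantile normalization. Total FPKM per library was 471636, 452455 and 500576 in longitudinal 4 h A, B and C. Each total exceeded every control, at 442076, 426480 and 444754 in A, B and C. The median control level of the chaperone genes was 23.2 FPKM against 7.72 FPKM over all genes in the table. The comparison with all genes was therefore not matched for level, and the part of the totals in the higher values was not tested. The 4 smooth muscle markers and the 7 macrophage markers also all lay above control here, with medians of 0.60 and 0.17, and 0 of them were called. The smooth muscle sum in all 3 libraries exceeded every control, and the macrophage sum was 404 to 449 FPKM against 293 to 423 FPKM in control. Of the smooth muscle markers, Acta2 and Tagln held most of the sum and lay wholly above control, while Cnn1 and Myh11 overlapped it. The part of both marker sets in the higher values was not tested. In 32 of the 75 genes (42.7%) all 3 stretched libraries exceeded all 3 controls, against 20.9% of all genes, and in 10 (13.3%) all 3 lay below, against 21.5%. After quantile normalization 7 genes rose and 8 fell, 13 of the 17 calls being shared. Fold changes here and below are on the log2(FPKM + 1) scale, with the SE from limma and p-values adjusted over all 12114 genes.

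Dnajb4, a DnaJ that works with HSP70 in the cytosol (chromosome 3, 151846919 to 151873263 in mm9), had the largest change among the calls that held under every omission of a single library. Its control values were 28.98, 23.1 and 30.8 FPKM, and those of longitudinal 4 h 53.8, 53.8 and 72.5 FPKM. The transverse and longitudinal 30 min groups held 38.1, 52.1 and 34.3 and 40.9, 43.9 and 50.8 FPKM, and transverse 4 h 39.9, 44.4 and 36.5 FPKM. All 12 stretched libraries lay above all 3 controls, the only one of the 75 genes for which this held (1.33%, against 0.66% of all genes; for 0 genes were all 12 below). The log2 fold change in longitudinal 4 h was 1.09 ± 0.16, adjusted p = 0.00438, or 2.13-fold on the scale of FPKM + 1, with adjusted p from 0.00185 to 0.0252 when each of the 15 libraries was left out in turn. Against the same controls it was 0.69 ± 0.16, adjusted p = 0.132 in longitudinal 30 min, 0.56 ± 0.16, adjusted p = 0.621 in transverse 30 min and 0.53 ± 0.16, adjusted p = 0.33 in transverse 4 h, none of which passed. The difference between axes at 4 h was 0.55 ± 0.16, adjusted p = 0.112, so a difference between the axes was not established. Dnajb4 overlaps Fubp1 in RefSeq, and without strand information reads of overlapping genes cannot be told apart.

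Dnaja1, a DnaJ A partner of cytosolic HSP70 (chromosome 4, 40669501 to 40704918 in mm9), rose from 24.5, 26.2 and 24.2 FPKM in control to 30.6, 32.9 and 32.97 FPKM in longitudinal 4 h. The log2 fold change was 0.35 ± 0.076, adjusted p = 0.0108 (0.00412 to 0.0432 over the omissions). The interval of this row is 2.83 times as long as the RefSeq gene and overlaps Gm6297 and Mir207, so the value may hold more than Dnaja1. Transverse 4 h values of 27.9, 28.3 and 29.6 FPKM lay between those groups without overlap, though that difference did not pass (0.19 ± 0.076, adjusted p = 0.423). Its paralogue Dnaja2 moved from 63.6, 66.7 and 65.4 to 77.7, 72.4 and 83.5 FPKM, a rise of 0.25 ± 0.07, adjusted p = 0.0268, also without overlap.

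Hspa12a, a distant member of the HSP70 family (chromosome 19, 58870241 to 58935474 in mm9), was the 1 gene among the 7 that fell whose call held under every omission. It was at 3.81, 3.86 and 4.00 FPKM in control, 3.62, 3.66 and 3.66 FPKM in longitudinal 30 min and 2.44, 2.65 and 2.38 FPKM in longitudinal 4 h. All 3 libraries of the last group lay below every control and every longitudinal 30 min library. The log2 fold change against control was -0.49 ± 0.064, adjusted p = 0.0035 (0.0019 to 0.0217 over the omissions). Hspa12a overlaps Eno4 in RefSeq. The interval of its row is only 0.441 times as long as the RefSeq gene, and whether the row itself overlaps Eno4 was not checked. In transverse 4 h the values were 2.84, 2.71 and 2.75 FPKM, also below every control, with a log2 difference of -0.38 ± 0.064, adjusted p = 0.0905. Without transverse 30 min A or without transverse 30 min C that difference passed the threshold. Hspa12b, its relative known from endothelial cells, went from 2.51, 2.91 and 2.72 to 2.13, 1.99 and 2.05 FPKM (-0.28 ± 0.091, adjusted p = 0.0456), again without overlap. The endothelial markers summed to 26.9 to 45.7 FPKM in control and 32.4 to 36.9 FPKM in longitudinal 4 h, ranges that overlap, with Flt1 called higher and Tek lower, and their part in the Hspa12b result was not tested.

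**Figure D3:**
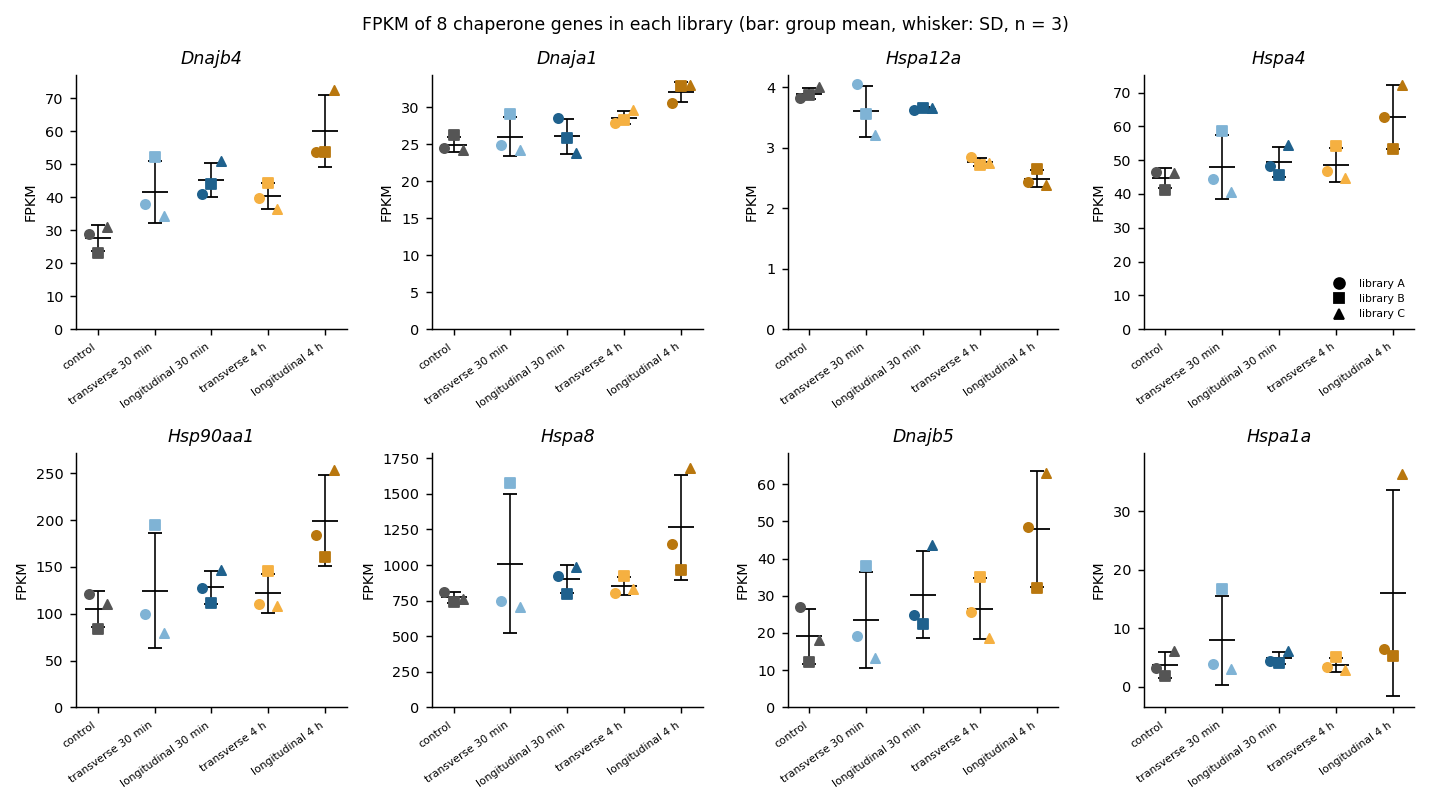
FPKM of 8 genes in each of the 15 libraries (circle A, square B, triangle C), with the group mean and SD (n = 3 libraries). Dnajb4 lies above control in all 12 stretched libraries and Hspa12a lies below control in both 4 h groups, whereas Hspa8 and Hspa1a are set apart by transverse 30 min B and longitudinal 4 h C.

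Among the HSP70 and HSP110 genes, the largest fold changes belonged to genes that did not pass the test. Hspa1a had a log2 difference of 1.45 ± 0.68, adjusted p = 0.144, and Hspa1b, at 3.26, 2.14 and 6.58 FPKM in control and 6.65, 5.40 and 34.3 FPKM in longitudinal 4 h, one of 1.36 ± 0.64, adjusted p = 0.141. Without longitudinal 4 h C the Hspa1a value was 0.63, the lowest of its 15 omissions, and its adjusted p ranged over them from 0.0823 to 0.478. Hspa1l, named after its values were seen, also did not pass. It ran from 8.103 to 22.1 FPKM in longitudinal 4 h, wholly above its controls at 2.36 to 7.42 FPKM. Its library C was 1.97 times the mean of A and B, against 6.23 times for Hspa1a and 5.69 times for Hspa1b. Hspa8 had 1150.1, 963 and 1679.6 FPKM in longitudinal 4 h. All 3 values exceeded the controls, with library C far above the other two, and the log2 fold change was 0.67 ± 0.26, adjusted p = 0.0838. Without transverse 30 min B, where Hspa8 was at 1576 FPKM beside 749 and 707 FPKM in A and C, Hspa8 passed; its adjusted p ranged from 0.0119 to 0.29 over the omissions. Hspa4, an HSP110-type nucleotide exchange factor, rose from 46.5, 41.2 and 46.3 to 62.9, 53.3 and 72.1 FPKM without overlap (0.47 ± 0.14, adjusted p = 0.0309). Hsph1, of the same type, was at 11.7, 10.2 and 10.97 FPKM in control and 14.1, 11.7 and 23.2 FPKM in longitudinal 4 h, a log2 difference of 0.48 ± 0.28, adjusted p = 0.227. The organelle HSP70s differed less from control: Hspa9 in mitochondria had a log2 difference of 0.16 ± 0.069, adjusted p = 0.103, and Hspa5 in the ER one of 0.14 ± 0.18, adjusted p = 0.586.

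Of the HSP90 genes, only the inducible Hsp90aa1 passed. Its level rose from 121, 84.1 and 110.1 to 184, 160.1 and 254 FPKM, with no overlap and library C highest (0.90 ± 0.28, adjusted p = 0.042). Hsp90ab1 was at 626, 625 and 666 FPKM in longitudinal 4 h, overlapping control, with a log2 difference of 0.10 ± 0.073, adjusted p = 0.314. Hsp90b1 was at 255, 216 and 226 FPKM, also overlapping, with 0.033 ± 0.12, adjusted p = 0.868. The median of the 3 genes, 0.10, became -0.048 after quantile normalization.

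All 8 CCT subunits, Tcp1 included, lay higher in longitudinal 4 h than in control. For each subunit every longitudinal 4 h library lay above every control, which held for 20.9% of all genes. Their summed level was 708 ± 14.3 FPKM (SD, n = 3) in control, 749.6 ± 35.7 FPKM in transverse 4 h and 893 ± 99.2 FPKM in longitudinal 4 h. The median log2 fold change over the subunits was 0.26, and 0.096 after quantile normalization. Of the 8, Cct2 and Cct6a passed (25%, against 20.7% of all genes). Cct2 rose from 92.7, 103 and 101 to 122, 110.3 and 121 FPKM (0.25 ± 0.062, adjusted p = 0.0177), and Cct6a from 64.3, 57.2 and 62.3 to 74.3, 72.6 and 89.1 FPKM (0.35 ± 0.11, adjusted p = 0.0404). Tcp1 was at 95.3, 88.6 and 93.5 FPKM in control and 110.1, 107 and 121 FPKM in longitudinal 4 h, a log2 difference of 0.28 ± 0.11, adjusted p = 0.0838, and passed without transverse 30 min B or C and in a fit of the 2 groups alone (0.0214 to 0.242 over the omissions). Cct8 had the highest value of the 8, 0.71 ± 0.29, adjusted p = 0.0984, with 140.5, 121 and 211 FPKM in longitudinal 4 h against 93.02, 85.2 and 103 FPKM in control. Cct6a, Cct8 and Tcp1 overlap Psph, Usp16 and Mrpl18 in RefSeq, and the intervals of the Cct8 and Tcp1 rows are 3.26 and 2.74 times as long as the RefSeq genes. The interval of the Cct6a row is 0.49 times as long as its RefSeq gene. The subunits of 1 complex do not vary independently of each other.

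The mitochondrial chaperonin pair with the 3-unit motif fell just short of the threshold. Hspd1 was at 88.2, 69.6 and 77.1 FPKM in control and 95.9, 90.5 and 105 FPKM in longitudinal 4 h, with a log2 difference of 0.31 ± 0.10, adjusted p = 0.0506. Hspe1 was at 98.01, 91.7 and 94.6 FPKM in control and 113, 120.0 and 125 FPKM in longitudinal 4 h, with 0.33 ± 0.11, adjusted p = 0.0515. Neither gene overlapped between the groups. Over the omissions the adjusted p ranged from 0.0219 to 0.188 for Hspd1 and from 0.0064 to 0.154 for Hspe1, and both passed without transverse 30 min B or C, Hspd1 also without control A and Hspe1 also in a fit of the 2 groups alone. The other genes with that motif were Hsph1, given above, and Dnajb6, which had a log2 difference of 0.10 ± 0.094, adjusted p = 0.45.

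In the DnaJ B class, Dnajb5 passed beside Dnajb4. Dnajb5, which in mouse heart takes part in the redox control of the histone deacetylase HDAC4, rose from 27.00, 12.1 and 18.1 to 48.5, 32.04 and 63.1 FPKM (1.30 ± 0.41, adjusted p = 0.044). The groups did not overlap, but the controls themselves spread from 12.1 to 27.00 FPKM. The interval of the Dnajb5 row is 0.59 times as long as the RefSeq gene. Dnajb1, the main stress-inducible DnaJ, was at 15.96, 14.97 and 16.6 FPKM in control and 17.2, 18.6 and 30.6 FPKM in longitudinal 4 h, with library C well above A and B (0.42 ± 0.17, adjusted p = 0.101). The ER protein Dnajb9 showed overlapping values, 24.3, 29.7 and 31.8 FPKM in control and 30.9, 29.4 and 22.5 FPKM in longitudinal 4 h, and a log2 difference of -0.054 ± 0.17, adjusted p = 0.846, between -0.16 and 0.082 over the omissions. Dnaja4, in the DnaJ A class, was at 39.9, 23.1 and 36.8 FPKM in control and 89.6, 59.7 and 114 FPKM in longitudinal 4 h, with 1.36 ± 0.50, adjusted p = 0.0692; it passed without transverse 30 min B and in a fit of the 2 groups alone, and is named after its value was seen.

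The DnaJ C class, the largest, holds proteins that share little beyond the J domain. Of 24 tested, 1 rose, 4 fell and 19 did not pass, so that the share called, 20.8%, was close to the 20.7% of all genes. The median log2 fold change of 0.029 became -0.017 after quantile normalization. Dnajc21, a factor of ribosome assembly, rose from 9.98, 9.98 and 11.1 to 13.8, 12.1 and 13.5 FPKM (0.31 ± 0.074, adjusted p = 0.0145). Dnajc18 fell from 9.65, 11.9 and 11.4 to 7.92, 8.76 and 7.10 FPKM (-0.42 ± 0.10, adjusted p = 0.0126). The histone chaperone Dnajc9 fell from 12.1, 11.96 and 12.4 to 9.20, 10.3 and 8.05 FPKM (-0.37 ± 0.11, adjusted p = 0.0308). For both genes the longitudinal 4 h libraries lay wholly below control. The mitochondrial Dnajc30 fell from 20.2, 19.8 and 19.6 to 17.9, 16.6 and 17.00 FPKM (-0.20 ± 0.057, adjusted p = 0.0278), and Dnajc16, an ER protein, from 8.17, 9.68 and 9.73 to 8.21, 7.36 and 6.69 FPKM (-0.28 ± 0.087, adjusted p = 0.0421). Dnajc30 did not overlap between groups, and Dnajc16 did where its control A lay beside longitudinal 4 h A. Dnajc30 overlaps Bud23 in RefSeq, and the interval of its row is 10.7 times as long as the RefSeq gene.

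Among the cochaperones, Bag5, a nucleotide exchange factor for HSP70, rose from 12.8, 11.9 and 13.05 to 16.2, 14.7 and 16.8 FPKM (0.31 ± 0.09, adjusted p = 0.0302), and Fkbp4, an HSP90-binding immunophilin of steroid receptor complexes, fell from 79.3, 79.1 and 73.5 to 65.8, 64.5 and 65.6 FPKM (-0.24 ± 0.068, adjusted p = 0.0292). Neither overlapped with control. The related Fkbp5 lay on the other side, at 3.80, 3.27 and 3.18 FPKM in control and 3.92, 4.56 and 5.28 FPKM in longitudinal 4 h (0.34 ± 0.13, adjusted p = 0.082), and passed without transverse 30 min C (0.0384 to 0.263 over the omissions). Stip1, the adaptor between HSP70 and HSP90, was at 67.6, 60.95 and 68.3 FPKM in control and 80.6, 73.02 and 113 FPKM in longitudinal 4 h. Every longitudinal 4 h value lay above control, with a log2 difference of 0.41 ± 0.20, adjusted p = 0.154. Bag1 and Ahsa1, which stimulates the HSP90 ATPase, had log2 fold changes of 0.12 ± 0.061, adjusted p = 0.157 and of 0.087 ± 0.10, adjusted p = 0.557. The transcription factor genes differed little from control: Hsf1 was at 14.5, 14.7 and 15.8 FPKM in longitudinal 4 h (0.11 ± 0.081, adjusted p = 0.352) and Hsf2 at 10.6, 11.02 and 11.02 FPKM (0.093 ± 0.076, adjusted p = 0.392). Both sets of values are transcript levels and say nothing of the activity of the proteins.

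**Figure D4:**
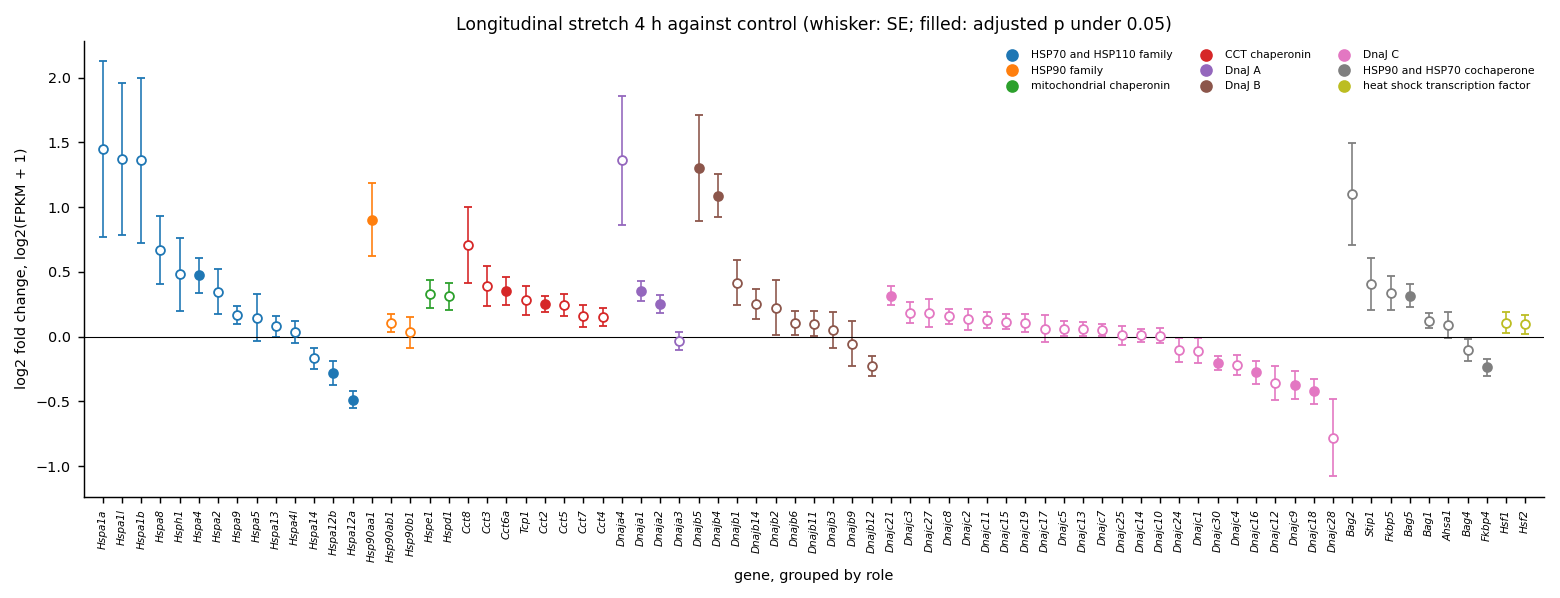
Log2 fold change of log2(FPKM + 1) in longitudinal 4 h against control for the 75 genes tested, grouped and coloured by role; whiskers are the SE and filled points have an adjusted p under 0.05 (limma). The 8 CCT subunits all lie above 0, while 4 of the 5 called DnaJ C genes lie below it.

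The calls depended on single libraries to a large extent, and so did those over all genes. The 2503 calls among all genes became 1023 without longitudinal 4 h C, 789 without control B, 1429 without longitudinal 4 h A and 1034 without control C. They became 3249 without transverse 30 min B and 1802 without both libraries that stood apart. An omission also makes its group smaller, so a lost call does not by itself mark the library as unusual. Dnajb4, Dnaja1 and Hspa12a passed under all 15 omissions. Without longitudinal 4 h C, 14 of the 17 calls were lost (adjusted p 0.0528 to 0.156), leaving those 3 genes. Without control B, 13 were lost (0.0579 to 0.158), with Cct2 the 1 further gene that remained. Without longitudinal 4 h A, 11 were lost (0.0505 to 0.0984): Dnajc21, Cct2, Dnaja2, Bag5, Hspa4, Cct6a, Hsp90aa1, Dnajb5, Fkbp4, Dnajc9 and Hspa12b. Without control C, 10 were lost (0.0616 to 0.132): Dnaja2, Bag5, Hspa4, Cct6a, Hsp90aa1, Dnajb5, Dnajc30, Dnajc9, Dnajc16 and Hspa12b. Each of the omissions of control A, transverse 30 min A and transverse 4 h A ended 5 calls, longitudinal 4 h B 4, longitudinal 30 min B and transverse 4 h C 3, longitudinal 30 min A and transverse 4 h B 2, and longitudinal 30 min C and transverse 30 min C 1, with adjusted p between 0.0504 and 0.0927. Without transverse 30 min B 0 of the 17 were lost and 28 genes passed, 19 higher and 9 lower. Without both libraries that stood apart, an alternative chosen after seeing the data, 13 passed, 9 higher and 4 lower; 10 were among the 17, and the other 3 were Hspa8, Hspe1 and Dnajc8. After quantile normalization Cct2, Dnaja2, Cct6a and Hspa12b did not pass, and in a fit of the 2 groups alone Cct2, Dnaja2, Dnajb5, Dnajc30 and Dnajc16 did not. With the library letter as a block, Hspa4, Cct6a, Hsp90aa1, Dnajb5, Dnajc30, Dnajc16 and Hspa12b did not pass.

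A textbook set of 17 heat-inducible genes (Hspa1a, Hspa1b, Hspa8, Hsp90aa1, Hsp90ab1, Hsph1, Hspa4l, Dnaja1, Dnajb1, Dnajb4, Hspd1, Hspe1, Stip1, Ahsa1, Fkbp4, Bag1 and Cct2) had 4 genes that rose, Dnajb4, Dnaja1, Cct2 and Hsp90aa1, and 1 that fell, Fkbp4 (29.4% called, against 20.7% of all genes). In it 16 of 17 values were above control (94.1%, against 48.2%), and the median of 0.35 was 0.23 without both libraries that stood apart. The set was listed with earlier results of these data known. Of the 12 genes listed as working in the ER (Hspa5, Hspa13, Hsp90b1, Dnajb9, Dnajb11, Dnajb12, Dnajb14, Dnajc1, Dnajc3, Dnajc10, Dnajc16 and Dnajc25), 0 rose and 1, Dnajc16, fell (8.33%, against 20.7% of all genes). Their median of 0.021 became -0.044 after quantile normalization. That list does not hold Dnajc18. Of the 7 mitochondrial genes Hspa9, Hspd1, Hspe1, Dnaja3, Dnajc11, Dnajc15 and Dnajc19, 0 passed; the list does not hold Dnajc30. Outside the 76 genes, 41 other chaperone genes were tested, of which 9 rose and 1 fell (24.4%, against 20.7%). By log2 fold change, those that rose were the mitochondrial import receptor Tomm70a (0.32 ± 0.063), Pdcl3 (0.70 ± 0.16), and the prefoldin subunits Pfdn4 (0.36 ± 0.088) and Vbp1 (0.18 ± 0.054). The HSP90 cochaperones Ptges3 (0.35 ± 0.088), Chordc1 (0.35 ± 0.10) and Ppid (0.24 ± 0.074) rose too, as did the cochaperone Bag3 (0.41 ± 0.13) and its small heat shock partner Hspb8 (0.71 ± 0.23). Ppp5c, an HSP90-bound phosphatase, fell (-0.26 ± 0.073).

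Against the same controls, the other stretch groups gave 0 calls among the 75 genes in limma. In transverse 30 min the background was 0.314% of all genes, and 2 of the 75 had an unadjusted p under 0.05 (2.67%, against 4.07% of all genes). In longitudinal 30 min the background was 0.446%, with 4 at that unadjusted level (5.33%, against 8.93%). In transverse 4 h it was 0.0578%, with 9 at that level (12%, against 10.6%). With the library letter as a block in a fit of control and longitudinal 30 min alone, an alternative chosen after seeing the data, 1 gene, Dnajb4, passed in longitudinal 30 min. Without transverse 30 min B Dnajb4 also passed there, and without both libraries that stood apart Dnajb4 and Dnajb1 did.

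The genes above control numbered 52 of 75 in transverse 30 min (69.3%, against 47.7% of all genes), 59 in longitudinal 30 min (78.7%, against 54.4%) and 39 in transverse 4 h (52%, against 51.7%). Their medians were 0.050, 0.092 and 0.0056 on the log2 scale, against -0.0051, 0.014 and 0.0049 over all genes. Without the libraries that stood apart the transverse 30 min median was -0.026, and after quantile normalization the 3 medians were 0.029, 0.026 and -0.0095. For the heat-inducible set the transverse 30 min median of 0.11 became -0.022 without the libraries that stood apart, and the longitudinal 30 min median was 0.15.

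**Figure D5:**
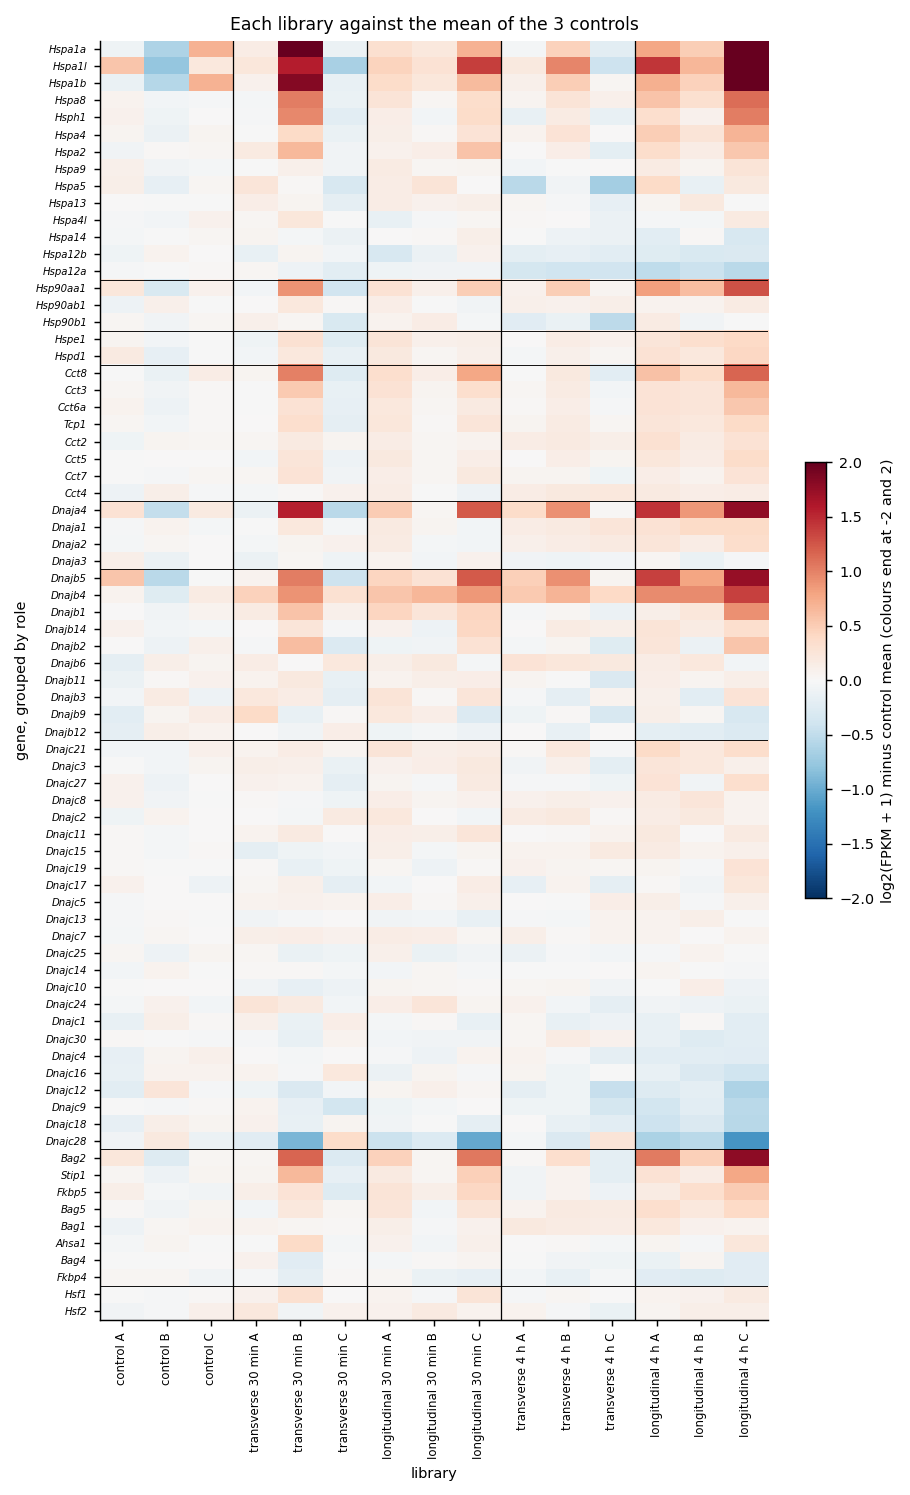
Log2(FPKM + 1) of the 75 genes tested in each of the 15 libraries minus the mean of the 3 controls, grouped by role, with colours that end at -2 and 2. Transverse 30 min B and longitudinal 4 h C share the strongest colours, and Dnajb4 is coloured as higher in all 12 stretched libraries.

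The ER chaperones Hspa5 and Hsp90b1 were placed differently by axis at 4 h, though neither difference passed. Hspa5 was at 205, 284 and 186 FPKM in transverse 4 h and 389.7, 269.9 and 342 FPKM in longitudinal 4 h, against 325, 267 and 306 FPKM in control. The transverse values overlapped with both other groups. The log2 fold change was -0.43 ± 0.18, adjusted p = 0.439 in transverse 4 h against control, and 0.58 ± 0.18, adjusted p = 0.114 for longitudinal against transverse. Hsp90b1 was at 193, 207 and 157 FPKM in transverse 4 h, below all 3 controls, with a log2 difference of -0.30 ± 0.12, adjusted p = 0.421, and longitudinal against transverse gave 0.33 ± 0.12, adjusted p = 0.133.

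In the direct test of axis at 4 h, 0 of the 75 genes passed, with a background of 0.0165%. At an unadjusted p under 0.05 there were 24 (32%, against 25.7% of all genes), and in 23 genes (30.7%, against 16.5%) all 3 longitudinal libraries exceeded all 3 transverse ones. At 30 min 0 passed as well, with a background of 0.0248%, and 2 had an unadjusted p under 0.05 (2.67%, against 5.49%). The interaction of axis and duration called 0, with the same background of 0.0248%, and 1 gene, Dnajc30, had an unadjusted p under 0.05 (1.33%, against 5.13%). In 3 genes (4%, against 1.28%) 2 stretch groups of the same axis or duration lay wholly on opposite sides of all 3 controls: Dnajc10 at 30 min and Dnajc30 at 4 h between axes, and Dnajc15 between durations of transverse stretch. A different response to the axis was therefore not shown for any of these genes by this test.

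Between durations, longitudinal stretch gave 2 calls of 75 (2.67%, against 4.98% of all genes), 1 higher and 1 lower, with backgrounds of 1.91% and 3.07%. Hspa12a was lower at 4 h than at 30 min, with a log2 difference of -0.41 ± 0.064, adjusted p = 0.00935 (0.00429 to 0.0439 over the omissions). Dnaja1, at 28.6, 25.8 and 23.9 FPKM at 30 min and 30.6, 32.9 and 32.97 FPKM at 4 h, was higher, with 0.29 ± 0.076, adjusted p = 0.0468. In a fit of these 2 groups alone, neither call passed. The Dnaja1 call was lost in 12 of the 15 omissions (adjusted p 0.0540 to 0.137), that is all except longitudinal 30 min A, transverse 30 min B and transverse 30 min C. Transverse stretch gave 0 calls between durations, with a background of 0.338%, and 5 genes at an unadjusted p under 0.05 (6.67%, against 12.4%).

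The authors' deposited table gives its own comparisons of each stretch group with control. In the authors' deposited table, q-values under 0.05 were found for 0 of the 76 genes in transverse 30 min (against 0.388% of all 13657 genes). For transverse 4 h the authors' deposited table also has 0 (against 0.256%). In the authors' deposited table there were 3 in longitudinal 30 min (3.95%, against 1.23% of all genes) and 12 in longitudinal 4 h (15.8%, against 5.82%). The 3 in longitudinal 30 min in the authors' deposited table were Dnajb4 (q = 0.00895), Dnajb5 (q = 0.0272) and Hspa1l (q = 0.0237). For longitudinal 4 h the authors' deposited table has 10 higher and 2 lower, of which Dnajb4, Dnajb5, Hsp90aa1 and Hspa12a were also called by limma, 33.3% of the authors' 12 and 23.5% of limma's 17. The smallest q-value of the 12 in the authors' deposited table was that of Hspa1a (q = 1.08e-13), whose longitudinal 4 h libraries held 6.52, 5.18 and 36.4 FPKM against 3.18, 1.88 and 6.14 FPKM in control.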

How the data were processed

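Gene expression of 15 libraries, 3 in each of 5 groups, was read from 1 table of 13657 genes. The authors deposited a value per gene and library that is read here as FPKM: the file headers do not name the unit, Cufflinks 2.0.2 is named in the submitters' processing notes, and column totals differ between libraries. Per the file headers the table also holds the authors' log2 fold changes, p-values and q-values for each stretch group against control; the sources used here do not name the test behind them, and the authors' group means were not used. The submitters' processing notes also list TopHat 1.4.1, FastQC and mm9, without role or order. Libraries were made with an unstranded TruSeq kit, per the labels' protocols, so reads of overlapping genes cannot be told apart; 32 of the 76 genes overlap another gene in RefSeq. FPKM carries no counts, so depth is unknown in absolute terms and counting intervals cannot be set; relative depth came from the steps of the lowest values, and pairwise correlations of log2 values between libraries were 0.943 to 0.988. Starts in the table count from 0 (for 3165 of 12208 genes the difference of end and start was the gene's span in GRCm38, and for 303 it was 1 short), so 1 was added.

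Tests used limma 3.58.1 in R 4.3.3, with trend and robust options, on log2(FPKM + 1), for the 12114 genes that reached 1 FPKM in 3 or more libraries. One model of the 5 group means was fitted (10 residual degrees of freedom), with two-sided p-values and Benjamini-Hochberg adjustment across all of these genes, and genes were called at an adjusted p under 0.05. This scale understates changes of genes with low values. Alternatives were a pseudocount of 0.1, no filter, quantile normalization, a replicate block, limma without trend and robust, only the groups compared, and each library left out.

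The members and lists were chosen with earlier results of these data known. Named are the called members, up to 10 per direction in each comparison, and a set of main chaperones; other names were chosen after their values were seen, and are marked so or come from the lists. Library letters were checked as pairs by the correlation of deviations from group means over 30 same-letter pairs of libraries: r ran from -0.502 to 0.513, 9 pairs were above 0.1, and control with longitudinal 30 min was the only pair of groups with all 3 letters above it (0.12, 0.35 and 0.312). Nothing in the labels says that letters mark shared material.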

Additional observations from a re-analysis of the deposited data

Results flagged for a closer look

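There were 5 differences between stretch groups that stood out. Hspa12a was lower in longitudinal 4 h than in longitudinal 30 min by a log2 value of -0.41 (limma, adjusted p = 0.00935), with all 3 libraries of 4 h below all 3 of 30 min. Dnaja1 was higher in longitudinal 4 h than in longitudinal 30 min by 0.29 (adjusted p = 0.0468).

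In 3 genes every library of 1 stretch group lay above all controls and every library of another lay below, while the test of the difference did not pass (4% of the 75 genes, against 1.28% of all genes). The ER protein Dnajc10 was at 28.1, 27.7 and 27.5 FPKM in longitudinal 30 min and 25.8, 23.96 and 25.2 FPKM in transverse 30 min, against 26.8, 27.1 and 27.1 FPKM in control, a log2 difference of 0.15 between the axes (adjusted p = 0.804). Dnajc30 was at 17.9, 16.6 and 17.00 FPKM in longitudinal 4 h and 20.5, 22.4 and 21.1 FPKM in transverse 4 h, against 20.2, 19.8 and 19.6 FPKM in control, a difference of -0.30 (adjusted p = 0.0781) that passed without transverse 30 min B. Dnajc15, a mitochondrial inner membrane protein, was at 50.2, 50.2 and 54.4 FPKM in transverse 4 h and 42.4, 45.2 and 46.2 FPKM in transverse 30 min, against 48.6, 46.6 and 48.8 FPKM in control, a difference of 0.21 between the durations (adjusted p = 0.201). Groups of 3 libraries were not screened for single outlying values.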

How the results depend on the processing

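No named gene reversed its sign and passed under any alternative. Counts of calls stayed within 1.5 times of the reported ones in 114 omissions of single libraries and 56 other recomputations. They moved further in 21 and 7. Most of the unmoved counts were 0 calls that stayed at 0, so these totals do not show that the calls were stable. For longitudinal 4 h against longitudinal 30 min most of the single omissions moved the count. For longitudinal 4 h against control, the 17 calls became 10 with the replicate block (6 higher and 4 lower) and ranged from 3 to 28 when single libraries were left out. Over all genes the 2503 calls became 1661 with the block and ranged from 789 to 3249 over those omissions. For longitudinal 4 h against longitudinal 30 min, the 2 calls became 1 after quantile normalization, 1 with the replicate block, 0 with only the groups compared, 1 without both libraries that stood apart, and 1 to 3 with single libraries left out. For longitudinal 30 min against control, the 0 calls became 1 with the replicate block and only the groups compared, 2 without both libraries that stood apart, and 0 to 1 with single libraries left out. The block together with only the groups compared, and the omission of both libraries, were chosen after seeing the data. Single omissions gave 0 to 1 calls for transverse 4 h against control (Hspa12a), for longitudinal against transverse at 4 h (Dnajc30, without transverse 30 min B) and for transverse 4 h against transverse 30 min (Hspa12a, without transverse 30 min C). The cause of these changes was not tested. Among the 19 named calls, 0 were lost with a pseudocount of 0.1, without the filter or without the trend and robust options, 5 after quantile normalization, 7 with only the groups compared, 8 with the replicate block and 8 without both libraries that stood apart. Absolute depth is unknown, so precision at low FPKM cannot be given.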

Other observations

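Dnajc28, chosen after its values were seen, ran opposite to Dnaja4 and Dnajb5 within stretched groups, and in part within control. In control, Dnajc28 was lowest in library C, whereas Dnaja4 and Dnajb5 were highest in A. In control B, however, Dnajc28 was highest, at 7.95 FPKM, and Dnaja4 and Dnajb5 were lowest, at 23.1 and 12.1 FPKM. Under stretch, Dnajc28 was lowest in transverse 30 min B, with 5.70, 3.14 and 9.11 FPKM in A, B and C. The same held in longitudinal 4 h C, with 4.08, 4.42 and 2.47 FPKM, and in longitudinal 30 min C, with 4.84, 5.51 and 2.84 FPKM. In these libraries Dnaja4 and Dnajb5 were highest of their group. Dnaja4 was at 29.7, 96.8 and 21.9 FPKM in transverse 30 min and 46.5, 33.4 and 77.4 FPKM in longitudinal 30 min. Controls ran from 6.22 to 7.95 FPKM for Dnajc28, and its log2 fold change in longitudinal 4 h was -0.78 ± 0.30, adjusted p = 0.077 (limma). It passed without transverse 30 min B, without transverse 30 min C and in a fit of the 2 groups alone (0.0316, 0.0415 and 0.0328).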
